A study of Mus musculus with 17 samples.

Results

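The apolipoprotein genes were compared between livers of Lean and Fat mice on the Steroltalk v2 chip, which carries cDNA spots for genes of cholesterol, bile acid, drug, fatty acid and glucose metabolism. They were chosen by name alone, as the mouse entries whose name begins with Apo and a following letter from a to f, h or m. This gave 9 genes of 279 named entries and 9 probes of 284: Apoa1, Apoa2, Apoa4, Apoa5, Apob, Apoc1, Apoc2, Apoc3 and Apoe. Each had 1 probe, spotted 3 times on every array.

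Total liver RNA came from 10 Lean and 10 Fat males aged 14 weeks, killed after a fast of 4 h. Both are inbred lines from 1 base population (CBA, JU and CFLP background), selected in opposite directions on body fat for more than 60 generations, and the labels name no treatment. Each of 17 arrays set 1 Lean mouse against 1 Fat mouse, with Cy3 on one and Cy5 on the other. Of the 10 pairs of mice, 7 were hybridised in both dye orientations and 3 (pairs 4, 5 and 7) in a single one. The lines are 1 inbred line each, so selection and other fixed differences between them cannot be told apart.

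Apolipoproteins are the proteins on the surface of lipoprotein particles, and the liver secretes most of them. ApoB is the structural protein of very low and low density lipoproteins, while ApoA-I and ApoA-II are the main proteins of high density lipoprotein (HDL). The small C apolipoproteins move between particles and tune lipoprotein lipase, and ApoE is a ligand for the hepatic uptake of remnants.

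In the RefSeq gene table (GRCm38.p6) the genes lie in 2 clusters and at 2 single positions. Apoa1, Apoc3, Apoa4 and Apoa5 follow each other on chromosome 9. Apoc2, Apoc1 and Apoe lie together on chromosome 7, with Apoc4, which is not on the list, between Apoc2 and Apoc1. Apoa2 is on chromosome 1 and Apob on chromosome 12. Promoter windows, from 250 bases before to 50 after a transcript start, were found for 7 of the 9 genes, and Apoc1 and Apoc3 had none. The windows of Apoa2 and Apoa5 are shown because these genes had the smallest p-value and the lowest mean ratio of the 9. They belong to the downstream of 2 listed starts for Apoa2 (chr1:171224804-171225103, plus strand) and the upstream of 2 listed starts for Apoa5 (chr9:46268358-46268657, plus strand), both from RefSeq on GRCm38.p6. Capitals mark exact matches, on either strand, to the nuclear receptor half-site AGGTCA, the E-box CACGTG and the TATA box TATAAA.
Apoa2: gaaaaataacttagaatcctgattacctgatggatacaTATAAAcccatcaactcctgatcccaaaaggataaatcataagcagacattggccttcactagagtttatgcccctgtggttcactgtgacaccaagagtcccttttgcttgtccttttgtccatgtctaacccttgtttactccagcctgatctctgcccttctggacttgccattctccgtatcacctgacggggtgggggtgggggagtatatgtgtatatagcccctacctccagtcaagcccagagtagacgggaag
Apoa5: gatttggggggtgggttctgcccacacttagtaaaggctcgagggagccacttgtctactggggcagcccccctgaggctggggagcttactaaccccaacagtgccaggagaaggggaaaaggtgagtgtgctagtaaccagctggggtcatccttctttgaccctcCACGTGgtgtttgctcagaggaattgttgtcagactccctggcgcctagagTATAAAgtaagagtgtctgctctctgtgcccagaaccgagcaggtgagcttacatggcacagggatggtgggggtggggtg
The Apoa5 window held an E-box 82 bases and a TATA box 31 bases before the listed start. The E-box was found in 7.15% of 32851 promoter windows, and in 2 of the 11 windows of the 7 genes, only for Apoa5. The TATA box, found in 13.6% of windows, was present in 5 of these 11 windows, which belong to 4 of the 7 genes. The letters in capitals for Apoa2 lie 212 bases before the start. The half-site, found in 16.3% of windows, was present in 2 of the 11, for Apoc2 and in the other window of Apoa2. A match to these letters is a description of the sequence, and no binding was measured.

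The check of tissue rested on marker genes: all 6 hepatocyte markers, among them Alb1 and Cyp2e1, were above background on 17 of 17 arrays in both lines, meaning that most spots of a probe exceeded their local background by more than 2 SD of it. Of the markers of other cells, Adipoq of adipocytes passed this limit on 12 arrays for Lean and 11 for Fat, Icam1 on 11 and 8, and the other 7 probes on 1 to 5. None of the 15 marker probes passed the adjusted threshold of 0.05 between the lines (adjusted p of 0.0625 or more, limma). Over all 284 probes, between 38.7% and 80.3% were above background in both channels of an array. The array of pair 10 with Lean in Cy3 had a high background, with 139 of the 143 spots whose local background exceeded 2000.

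The first question was whether apolipoprotein transcripts differed in abundance between the livers of the lines. None of the 9 genes passed the adjusted threshold of 0.05, against 3.52% of the 284 probes (10 probes, 8 up-regulated and 2 down-regulated in Lean mice). Only Apoa2 had an unadjusted p below 0.05, which is 1 of 9 against 15.1% of all probes. Mean ratios were above 0 for 7 of 9 genes, against 69.4% of all probes, and their median log2 ratio was 0.08 against 0.04 over all probes. Both figures include Apoc2, which was above background in both channels on 0 of 17 arrays, and the median is its value. The share of the 9 genes above 0 was close to that of the array as a whole. Ratios are log2 of Lean over Fat after background correction and normalisation to spike-in controls, the 10 pairs are the replicates, and the test was limma's moderated test with Benjamini-Hochberg adjustment over 284 probes.

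**Figure D1:**
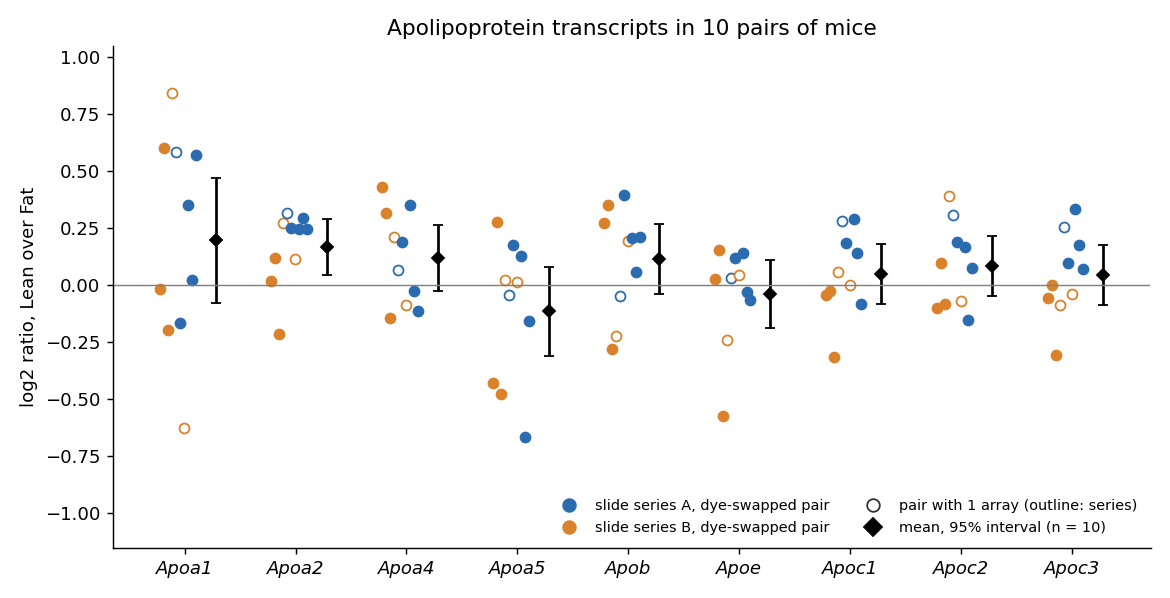
Log2 ratio of Lean over Fat (vertical axis) for each of the 9 apolipoprotein genes (horizontal axis) in 10 pairs of mice, coloured by slide series, with open circles for pairs measured on 1 array. Black diamonds give the mean and its 95% interval; the interval of Apoa2, from 0.04 to 0.29, is the only one that leaves out 0, and Apoa1 has the widest spread, from -0.63 to 0.84.

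The HDL apolipoproteins had mean ratios above 0 and differed in spread. Apoa2, which encodes ApoA-II, stood above 0 in 9 of 10 pairs. Its log2 ratio was lowest in pair 3, at -0.21, had a median of 0.25 and reached 0.32 in pair 5. Pair 3 was the only one below 0, and pair 1 lay close to it at 0.02. The mean was 0.17 ± 0.06 (SE, n = 10), a 1.12-fold difference with a 95% interval of 1.03 to 1.22. The gene ranked 17 of 284 by p (p = 0.0118, adjusted p = 0.196, limma), and an exact two-sided sign-flip test over 1024 patterns gave p = 0.0137. At least 9 of 10 pairs had the same sign for 7.39% of all probes. Without pair 3 the mean was 0.21 and the adjusted p 0.0314, so 1 pair of mice set the side of the threshold. With a wider LOWESS span of 0.75 the adjusted p was 0.0406 and with array weights 0.0341, while over the 21 alternatives it ranged up to 0.981.

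The Apoa2 probe stayed between background and ceiling throughout. Its signal above local background, averaged within pairs, was 395.5 to 7716 in Lean channels with a median of 1846, and 292 to 3929 in Fat channels with a median of 1299.8. It was above background on 17 of 17 arrays in both lines, and none of its 51 spots was saturated. The ranges of the lines overlapped, and the comparison rests on ratios within arrays. The 3 spots of an array agreed to a mean SD of 0.07 on the log2 scale, against 0.16 between pairs.

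The slides fall into 2 series by their numbers, with 5 pairs each, and the mean of Apoa2 was larger in one of them. In series A all 5 pairs were above 0 with a mean of 0.27, and in series B 4 of 5 were above 0 with a mean of 0.06. The difference of 0.21 ± 0.10 (SE, 5 pairs against 5) had an adjusted p of 0.871 as a term in limma, and the mean over both series then had an adjusted p of 0.134. The mean also differed by dye orientation: the mean over 8 arrays with Lean in Cy3 was 0.29, with all 8 above 0, while over 9 arrays with Lean in Cy5 it was 0.03, with 5 above 0.

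Apoa1, which encodes ApoA-I, had the widest spread between pairs, with an SD of 0.46. Its pair ratios ran from -0.63 in pair 7 to 0.84 in pair 4, with a median of 0.19, and 6 of 10 were above 0. The mean of 0.20 ± 0.13 (SE, n = 10) had an adjusted p of 0.546 (limma) and an exact two-sided sign-flip p of 0.221. The 95% interval of the fold ran from 0.949 to 1.39. Both extremes came from pairs with a single array, and the 7 dye-swapped pairs lay between -0.20 and 0.60.

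Saturation reached Apoa1 far more than any other member. At least 1 of its spots had a median pixel at or above 65000 of a ceiling of 65535 on 11 of 17 arrays, and all 3 spots did so on 8 arrays. In all, 28 of 51 spots were saturated, 15 in a Lean and 13 in a Fat channel and 0 in both, against 1.45% of the 14535 mouse gene spots. All 28 were in the Cy5 channel, where the signal was 16067 to 57009 with a median of 52583, against 4451 to 17554 with a median of 7413 in Cy3. The sign of an array's ratio followed the saturated line, which was always the line in Cy5, on 10 of these 11 arrays. In pairs 6 and 9, saturated in both orientations, sign and saturated line both changed with the dye. Their ratios were -0.41 and -0.19 with Lean in Cy3, and 0.09 and 0.24 with Lean in Cy5. Sign, saturation and dye orientation are thus not independent and cannot be told apart here. On the 6 arrays with a saturated Lean channel the log2 ratio was 0.09 to 0.84 and above 0 on all 6. On the 5 arrays with a saturated Fat channel it was -0.63 to 0.88 and below 0 on 4, the exception being the high-background array of pair 10. The 6 arrays without a saturated spot gave -0.12 to 0.54, and 5 of them were above 0. The part of saturation in the ratio of Apoa1 was not tested. With saturated spots left out 5 pairs remained and the mean was 0.16 ± 0.12 (SE, n = 5, adjusted p = 0.622, limma).

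**Figure D2:**
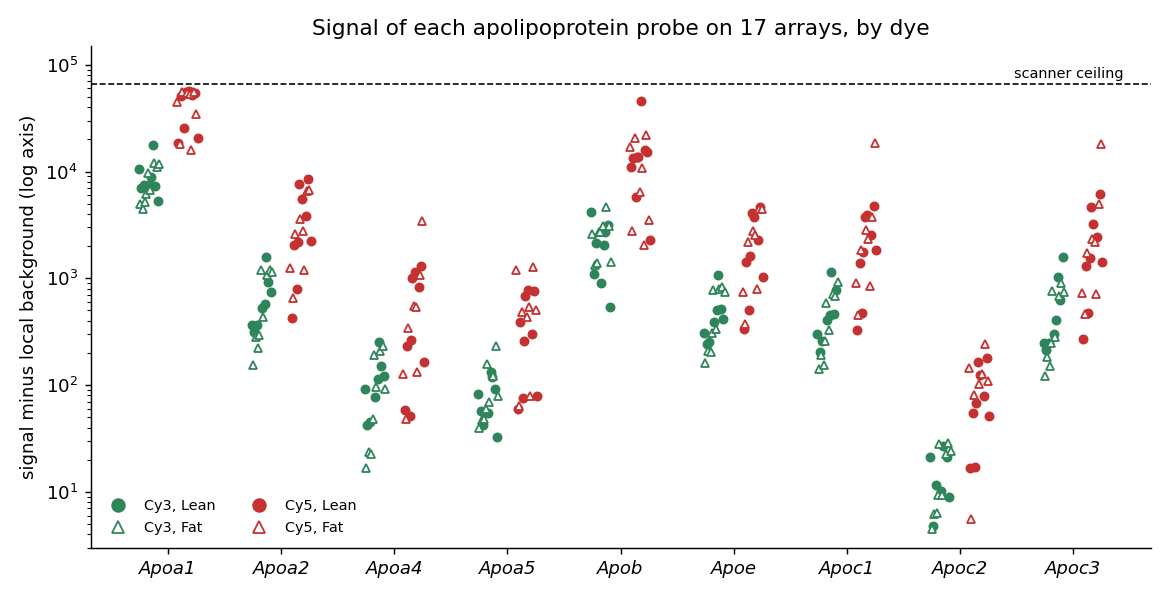
Signal minus local background on a log axis (vertical) for the 9 probes (horizontal) on 17 arrays, with Cy3 in green, Cy5 in red, filled circles for Lean and open triangles for Fat. The Cy5 values of Apoa1 crowd below the dashed scanner ceiling of 65535, up to 57009, and Apoc2 has the faintest spots; 1 Cy3 and 1 Cy5 value of Apoc2 below 0 are not drawn.

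A single spot also weighed on Apoa1. On the array of pair 10 with Lean in Cy3, foreground and local background of 1 Apoa1 spot both stood at 65535 in the Fat channel, and its log2 ratio came out at 3.87. Pair 10 gave 0.57 with that spot and -0.18 without it. Leaving out spots with a local background above 2000 lowered the mean of Apoa1 from 0.20 to 0.12, below that of Apoa2. Apoa1 was then above 0 in 5 of 10 pairs, against 6 with all spots. On the same array of pair 10, 1 spot of Apoc1, at -1.92, and 1 of Apoc3, at -0.79, also had a local background above 2000. Without its spot Apoc1 went from -0.08 to 0.23 in pair 10 and from 0.05 to 0.08 in the mean, with 7 of 10 pairs above 0, and the mean of Apoc3 went from 0.05 to 0.06. These were the only 3 apolipoprotein spots above that background.

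Apoa4 and Apoa5 sit beside Apoa1 and Apoc3 on chromosome 9. ApoA-IV is a lipid-binding protein of HDL and chylomicrons, and ApoA-V lowers plasma triglyceride in mice and acts with lipoprotein lipase. Apoa4 had pair ratios from -0.14 to 0.43 with a median of 0.13, 6 of 10 above 0. Its mean was 0.12 ± 0.07 (SE, n = 10, adjusted p = 0.471, limma), and the 2 slide series gave 0.09 and 0.15. Apoa4 was above background on 17 arrays in Lean channels and on 14 in Fat channels. By dye it was so on 17 arrays in Cy5 and on 14 in Cy3. Array ratios of Apoa4 were above 0 on 3 of 8 arrays with Lean in Cy3, and on 9 of 9 with Lean in Cy5. The means were 0.06 and 0.19. Under all 21 alternatives the mean of Apoa4 kept its sign, between 0.06 and 0.23, without passing the threshold under any.

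Apoa5 had the lowest mean of the 9 genes, and its pairs were split evenly. The ratios ran from -0.66 in pair 9 to 0.28 in pair 2 with a median of -0.01, and 5 of 10 were below 0. Pairs 1, 3 and 9 were the low ones, at -0.43, -0.47 and -0.66, and the other 7 lay between -0.16 and 0.28. The mean was -0.11 ± 0.09 (SE, n = 10, adjusted p = 0.601, limma; exact two-sided sign-flip p = 0.266). It was -0.05 without pair 9 and -0.07 without pair 3. The series means were alike at -0.11 and -0.12. Signals of Apoa5 were low, with medians of 218 in Lean and 259 in Fat channels, and on 2 arrays, both of pair 10, the Lean channel was not well above background.

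Apob and Apoe, which encode the ligands for hepatic uptake of lipoprotein particles, had ratios that correlated over pairs but means on either side of 0. Apob ratios ran from -0.28 in pair 3 to 0.40 in pair 6 with a median of 0.20, and 7 of 10 were above 0. The mean of Apob was 0.11 ± 0.07 (SE, n = 10, adjusted p = 0.541, limma). Apoe ratios ran from -0.57 in pair 3 to 0.15 in pair 2 with a median of 0.03. Its mean was -0.04 ± 0.07 (SE, n = 10, adjusted p = 0.80, limma), although 6 of 10 pairs were above 0. Pair 3 decided that sign, since the mean of Apoe without it was 0.02. The 95% interval of the Apoe fold ran from 0.879 to 1.08. Neither gene had a saturated spot, and both were above background on every array.

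Of the C apolipoproteins, Apoc1 and Apoc3 had mean ratios close to 0, and Apoc2, with signals at or near background, is described apart. Apoc1 and Apoc3 slow the clearance of triglyceride-rich particles, while Apoc2 is the cofactor that lipoprotein lipase needs. Apoc1 ran from -0.32 to 0.29 with a median of 0.03, and Apoc3 from -0.30 to 0.34 with a median of 0.04. Their means were 0.05 ± 0.06 for both (SE, n = 10, adjusted p = 0.740 for Apoc1 and 0.755 for Apoc3, limma). Each had 6 of 10 pairs above 0, and pair 3 was lowest for both. Their slide series had means on either side of 0: Apoc1 averaged 0.16 in series A and -0.06 in series B, and Apoc3 averaged 0.19 with 5 of 5 pairs above 0 in series A and -0.10 with 1 of 5 above 0 in series B. The difference between series had an unadjusted p of 0.0143 for Apoc3 and 0.0614 for Apoc1, and an adjusted p of 0.871 for both (limma). Of all 284 probes 0% passed that adjusted threshold, and 3.87% had an unadjusted p below 0.05. Apoc3 had 1 saturated spot, the one with high background in pair 10, and Apoc1 had none.

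Apoc2 could not be measured in both lines on any array. The Lean channel passed the background limit on 4 arrays and the Fat channel on 4 others, each time in Cy5, and both channels did so on 0 of 17 arrays. Its signals were -93 to 243 in Cy5 with a median of 81.5, and -20.1 to 28.9 in Cy3 with a median of 10.1. Pair ratios ran from -0.15 to 0.39 with a mean of 0.08 ± 0.06 (SE, n = 10, adjusted p = 0.577, limma), and on every array at least 1 of the channels behind them was not well above background. With Lean in Cy3 the array ratios were above 0 on 1 of 8 arrays with a mean of -0.22, and with Lean in Cy5 on 9 of 9 with a mean of 0.32. On the Lean in Cy5 arrays alone Apoc2 had an adjusted p of 0.0352 and Apoa1 of 0.0418, but so many probes passed there (18.7% of 284) that 2 of 9 is near the background.

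**Figure D3:**
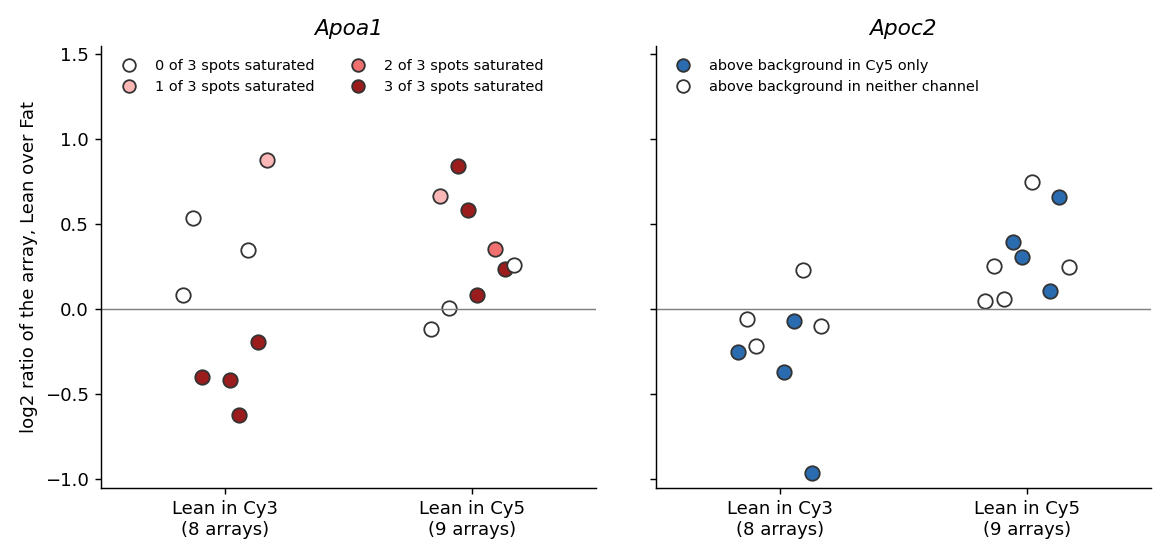
Log2 ratio of each array (vertical axis) by the dye of the Lean sample (horizontal axis), for Apoa1 shaded by the number of saturated spots and for Apoc2 coloured where the Cy5 channel was above background. The Apoa1 arrays with 3 saturated spots lie below 0 with Lean in Cy3 and above 0 with Lean in Cy5, and Apoc2 is above 0 on 1 of 8 and 9 of 9 arrays.

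The dye-swapped pairs showed how much a ratio depended on which line wore which dye. The dye effect is the log2 ratio with Lean in Cy5 minus that with Lean in Cy3, divided by 2, within each of 7 pairs. With spike-in normalisation the effect of Apoe was -0.29 ± 0.33 (SD, n = 7) and that of Apoc2 was 0.28 ± 0.30. For Apoe the 7 effects ran from -0.72 to 0.10, and in 5 of 7 pairs the 2 arrays had opposite signs. For Apoc2 they were above 0 in 6 of 7 pairs. Both turned under median centring, where Apoe was at 0.37 with 6 of 7 pairs above 0 and Apoc2 at -0.26 with 6 of 7 below 0, and Apob, at 0.72, and Apoa1, at 0.71, were then larger. With LOWESS on all gene spots the effects were -0.11 for Apoe and 0.08 for Apoc2, and with plain background subtraction that of Apoc2 was 2.09. No test is given for Apoc2, whose Cy3 signal was not well above background on any array. The median size of the effect was 0.15 over the 9 genes and 0.17 over all probes. For 6 of the 9 genes the mean dye effect was larger in size than the mean ratio between the lines. Averaging the arrays of a pair cancels it, but the 3 single-array pairs still carry it.

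**Figure D4:**
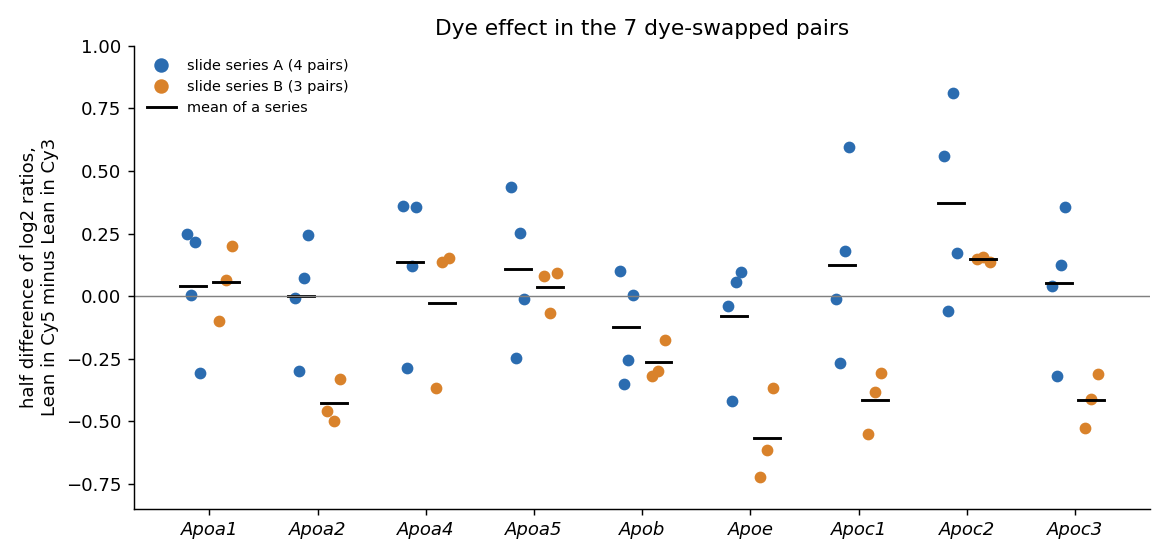
Dye effect in log2 units (vertical axis) of the 9 genes (horizontal axis) in the 7 dye-swapped pairs, blue for slide series A and orange for series B, with bars at the series means. In series B all 3 pairs lie below 0 for Apoa2, Apob, Apoe, Apoc1 and Apoc3, with means from -0.57 to -0.26.

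In slide series B the 3 dye effects shared a sign for 6 of the 9 genes, against 59.5% of all probes. They were below 0 for 5 genes, against 27.1% of all probes, and above 0 for Apoc2, with a mean of 0.15. The genes were singled out after their values were seen. Apoa2 averaged -0.43, Apoe -0.57, Apoc1 -0.41, Apoc3 -0.42 and Apob -0.26 over the 3 pairs, and all 3 pairs were below 0 for each. In series A the same genes averaged 0.00, -0.08, 0.12, 0.05 and -0.13 over 4 pairs, on both sides of 0. The series were told apart by slide number, and they also hold different mice. In the dye-swapped pairs the mice of series B carried lower identity numbers than those of series A. Slides and mice thus cannot be told apart, and what else differed between the series was not tested. Over all 7 pairs the dye effects also depended on the normalisation. When arrays were centred on their median, those of Apoa2, Apob, Apoc1 and Apoc3 were above 0 in 7 of 7 pairs, and that of Apoe in 6 of 7. With LOWESS on all gene spots the means over 7 pairs of Apoa2, Apob, Apoc1 and Apoc3 were 0.03 to 0.07. With spike-in normalisation they were -0.19 to -0.11. Apoe was at -0.11 with LOWESS on all gene spots, against -0.29 with spike-ins.

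In some pairs of mice the 9 genes had a common sign, as did most of the array. In pair 3 all 9 genes were below 0 with a median of -0.28, where the median of all probes was -0.10 and 18.7% of them were above 0. In pair 8 all 9 were above 0 with a median of 0.25, where all probes had 0.08 and 76.1% were above 0. Pair 9 had the median of the 9 genes farthest above that of all probes, at 0.02 against -0.19. The array as a whole thus moved in the same direction as the 9 genes in pairs 3 and 8, and the gap was 0.18 and 0.17 on the log2 scale.

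Over the 10 pairs the ratios of apolipoprotein genes correlated for some genes. The highest Pearson correlations, given as descriptions over pairs that share their arrays and normalisation, were 0.91 for Apoc1 and Apoc3, 0.84 for Apob and Apoe, 0.83 for Apoa2 and Apoc1 and 0.80 for Apoa2 and Apoc3. Their Spearman coefficients were 0.78, 0.68, 0.76 and 0.65. The median over the 36 gene pairs was 0.39, with 34 above 0, and over all pairs of probes it was 0.30, with 76.4% above 0. The 6 gene pairs within the chromosome 9 cluster had a median of 0.29 and a highest value of 0.38. The 3 gene pairs within the chromosome 7 cluster had a median of 0.50 and a highest value of 0.70, and the 27 gene pairs on different chromosomes had a median of 0.42. Outside the family, the probes most like Apoa2 were Cry1 (0.80), Crem (0.74) and Nr1c2 (0.70), none of which passed the threshold (adjusted p of 0.546 or more, limma).

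Genes that handle the particles were described from 2 further lists. Of 15 genes of lipoprotein receptors and cholesterol handling, with 16 probes, 1 was up-regulated in Lean mice, against 2.82% of all probes, and 0 were down-regulated, against 0.704%. It was Lip1, which encodes lysosomal acid lipase, the enzyme that frees cholesterol from lipoproteins taken up by the cell, at 0.26 ± 0.07 (SE, n = 10, adjusted p = 0.0487, limma), above 0 in 9 of 10 pairs. The call of Lip1 was lost under median centring, with an adjusted p of 0.077, and without background subtraction, with 0.0589. Leaving out any 1 pair other than pair 3 or pair 4 also ended it, with adjusted p of 0.0114 to 0.146 over the 10 pairs left out in turn. Abcg5, a sterol exporter, had the lowest mean of that list, at -0.24 ± 0.11 (SE, n = 10, adjusted p = 0.316, limma). The median of the 16 probes was 0.04, equal to that of all probes.

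Of 24 regulators of apolipoprotein genes, 23 were matched to a probe, 7 of them under an older name that was matched through RefSeq synonyms. None passed the threshold, against 3.52% of all probes, and 0 of 23 is near that share. The median log2 ratio of the 23 was 0.01, against 0.04 over all probes, and 13 were above 0, against 69.4% of all probes. The highest mean was that of Nr1h2, at 0.15 (adjusted p = 0.541, limma), and the lowest that of Nr1d2, at -0.39 (adjusted p = 0.389). Nr5a2, a hepatic orphan receptor, was at 0.13 ± 0.05 (SE, n = 10, limma adjusted p = 0.239). It was the only regulator past the threshold in the deposited value table, at 0.25 with a limma adjusted p of 0.0264.

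The deposited table of normalised ratios gave a further view of the 9 genes. It holds values for Apoa1 on 6 of 17 arrays, and these were the same 6 arrays that had no saturated Apoa1 spot in the scanner files. For Apoc2 it holds values on 3 arrays, which left 3 pairs, too few for the minimum of 5, and for Apoa5 on 16. Apoa2 averaged 0.20 there with 9 of 10 pairs above 0 (adjusted p = 0.0891, limma), and Apoa1 averaged 0.22 over 5 pairs (adjusted p = 0.479). None of the 8 genes that could be tested passed the threshold.

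**Figure D5:**
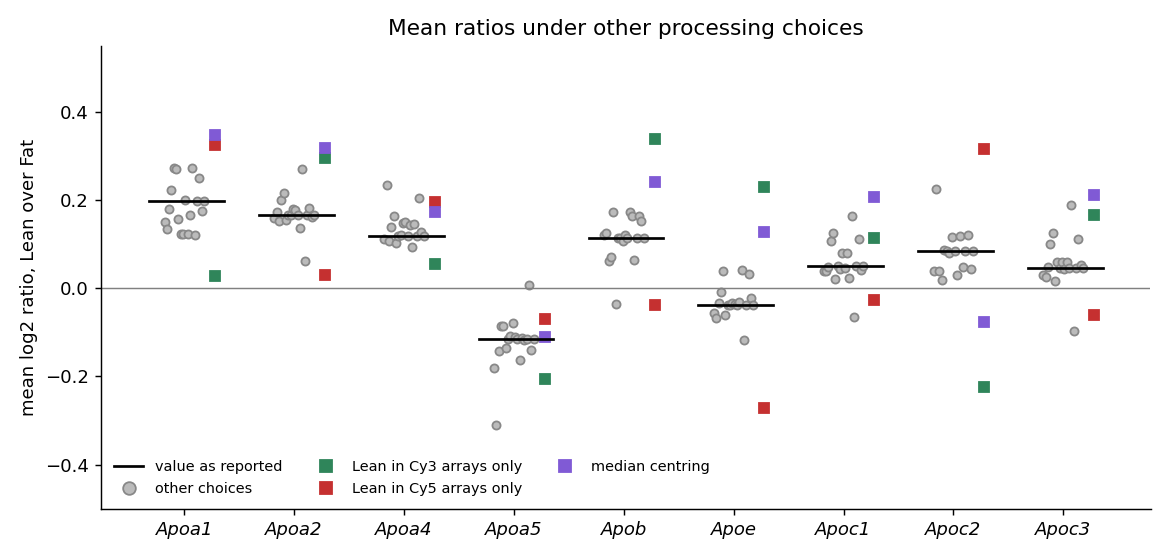
Mean log2 ratio of Lean over Fat (vertical axis) of the 9 genes (horizontal axis) as reported (black lines) and under 21 other choices of processing (points), with arrays of 1 dye orientation and median centring in colour. The ratios of Apoa1, Apoa2 and Apoa4 stay above 0 under all of them, down to 0.03, 0.03 and 0.06. Those of Apoe lie between -0.27 and 0.23.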

How the data were processed

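The 17 two-colour arrays each compared 1 mouse of either line. The intensity values, mean and median pixels of spots and of the background around them in either channel, were read from the images by the authors with Array-Pro Analyzer and deposited without normalisation. The deposited value table holds log2 ratios, which the authors made by LOWESS on spike-in controls after removing low-quality spots by a criterion not given in the sources used here. It correlated with the scanner-based ratios at 0.43 to 0.98 per array, which set its direction. No per-sample columns were left without a sample (0), and the files hold no comparisons by the authors.

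Intensities (mean pixels) received normexp background correction with an offset of 50. Control LOWESS in limma (span 0.3) was then run per array on luciferase and calibration spike-ins, followed by averaging of the 3 spots and of the arrays within a pair. Tests were two-sided: the limma fit (limma 3.58.1, R 4.3.3) over all probes, with adjustment by Benjamini-Hochberg, and exact permutation of signs for single genes. Spots with a median pixel of 65000 or more were called saturated and kept. The steps were tested on simulated data with planted ratios. The number of pairs limits the precision. Alternatives changed background, normalisation, spots, pairs, dye handling, weights and test. The median of pixels, the limit on local background, the dye effects under other normalisations and the test of the series term were chosen after seeing the data.

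All 9 genes are named. Of the further lists every gene past the threshold is named, or else the highest and the lowest mean. Abcg5 and Nr5a2 were added after their values were seen, and 3 probes were named by correlation with the member of smallest p. The members and lists were chosen with earlier results of these data known. Values of 1 gene of the further lists are not reported here.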

Additional observations from a re-analysis of the deposited data

How the results depend on the processing

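Of 21 alternatives, 3 changed the count of 0 calls among the 9 genes: a LOWESS span of 0.75 gave 1 (Apoa2), array weights gave 1 (Apoa2) and arrays with Lean in Cy5 gave 2 (Apoa1, Apoc2). Leaving out each pair in turn gave 0 to 1, the call being Apoa2 without pair 3. Over all probes the count of calls was 10, and it went from 2 in slide series B to 53 on arrays with Lean in Cy5. The split of calls, 8 higher and 2 lower in Lean, was 3 and 3 with plain background subtraction, 8 and 7 without subtraction, 3 and 2 under median centring and 8 and 4 in the value table. Apoa1, Apoa2 and Apoa4 kept their sign under all 21. Their lowest means were 0.028, 0.030 and 0.056, each on the arrays of 1 dye orientation. For Apoa1 this was Lean in Cy3, with 4 of 8 arrays above 0. With Lean in Cy5 its mean was 0.32, with 8 of 9 above 0.

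Of 187 values of single genes, 14 changed sign, and none of these passed the threshold. These were Apoa5 with array weights (0.0077), Apob with ratio controls in the LOWESS (-0.036) and with Lean in Cy5 (-0.038), Apoc1 in series B (-0.064) and with Lean in Cy5 (-0.028), Apoc3 in series B (-0.096) and with Lean in Cy5 (-0.061), and Apoc2 under median centring (-0.076) and with Lean in Cy3 (-0.22). Apoe turned under median centring (0.13), span 0.75 (0.040), series A (0.041), Lean in Cy3 (0.23) and array weights (0.031). Apart from these 14, Apoe also turned without pair 3, its leave-one-out range being -0.059 to 0.022. The causes were not tested. The methods' t-test gave 35 probes at 0.05 unadjusted and 6 after adjustment, with 1 and 0 among the 9 genes. Lean and Fat were paired on each array, so all ratios are within pairs. With a dye coefficient and the pair as replicate block over 17 arrays, 0 of the 9 genes passed, and Apoa2 was at 0.16 with an adjusted p of 0.289.

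Genes whose 7 dye effects shared a sign numbered 0 of 9, against 14.8% of all probes, but 1 without subtraction (21.1%) or with plain subtraction (15.7%), namely Apoc2, and 4 under median centring (29.2%). Calls in the receptor list fell from 1 to 0 under median centring and without subtraction, and those among regulators rose from 0 to 1 in the value table. Ratios of Apoc2 rest on signals at or near background, and the Cy5 signals of Apoa1 on the scanner ceiling.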
